A study of Mus musculus with 2 samples.

Results

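The cytosolic ribosomal protein genes were followed in dermal cells of untreated and imiquimod-treated mouse skin. Members were the genes whose symbol is Rps or Rpl followed by a digit, together with Rpsa, Rplp0, Rplp1 and Rplp2. The 9 symbols with -ps and the 10 Rps6k kinase symbols of the same pattern were left out, which gave 86 members of 31053 genes. By role these were 31 small-subunit proteins, 43 large-subunit proteins, 3 stalk proteins, 8 paralogs or copies whose symbol ends in l, l1 or rt, and Rps19bp1, a protein that binds RPS19 and is no part of the ribosome.

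The samples were 2 single-cell 3′ libraries, 1 of untreated skin (UT) and 1 of skin after 7 days of imiquimod (IMQ), a Toll-like receptor agonist used to induce psoriasis-like inflammation. Both came from the dermis of C57BL/6 PdgfraDreER-tdTomato mice aged 8 week. In these mice tamoxifen lets a Dre recombinase driven by Pdgfra switch on tdTomato, so the label marks cells that expressed Pdgfra at the time of tamoxifen and their progeny, and the sort took live tdTomato-positive, CD45-negative cells. With 1 library per treatment there was no replicate, so no test was possible, every interval given is a 95% interval for counting error only, and any difference between treatments cannot be told apart from a difference between libraries.

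A cytosolic ribosome joins a small and a large subunit around ribosomal RNA, and each ribosomal protein is normally present in 1 copy per ribosome, apart from the stalk dimers of P1 and P2 that recruit elongation factors. The messengers of these proteins begin with a terminal oligopyrimidine (TOP) tract, which puts their translation under the control of mTORC1 and the RNA-binding protein LARP1. Because most cells make them in large amounts, they fill a large part of a single-cell library.

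Letters around the start sites are shown first, because the oligopyrimidine tract is the feature these messengers are known for. Promoter sequence was taken from RefSeq for 66 of the 86 members, with 78 start sites. A C followed by at least 7 more pyrimidines (C or T) lay within 50 bases on either side of a start, on the gene's strand, in 53 of these 66 genes. That was 80.3% of these genes against 32.0% of 27025 genes. Counted by start it was 59 of the 78, or 75.6%, against 28.8% of 32851 starts of all genes. The windows below, each 24 bases from the GRCm38.p6 assembly with the run in capitals, belong to members whose ratios are described further on or that illustrate long and short runs.
Rps6, chr4:86857350-86857373, minus strand: tcgggCCTCTTTTTCgtgacgcct
Rpl5, chr5:107900503-107900526, plus strand: agccaCTCTTTCTCacgtcgcttg
Rplp2, chr7:141447642-141447665, plus strand: agcgtCTTCCTTTCgccgccggac
Rps26, chr10:128626484-128626507, minus strand: cggatCCTCTTTCgagtcttggct
Rpl38, chr11:114668575-114668598, plus strand: tcgttCTTTCCCCgttctcttcgg
Rpl15, chr14:18270972-18270995, minus strand: gaaagCCTTCTTCCTTTCCTCTgg
Rps27l, chr9:66946069-66946092, plus strand: ctccaCTCCTCCCCgccgcctcta

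The run of Rpl15 was 17 bases long and began 4 bases before its RefSeq start, whereas that of Rpl38 was 8 bases long and began at the start itself. Rplp2 and Rpl5, which lay at opposite ends of the ratios described below, both had runs of 9 bases. Of 4 other motifs searched in the same window on both strands, CCGGAAG was present at 17.9% of the members' starts against 5.21% of all starts, ATGGCG at 19.2% against 4.59%, GGGCGG at 34.6% against 21.7%, and TATAAA at 6.41% against 4.94%. These are matches of letters and not measured binding sites. In GENCODE M21 the 86 members lay on 19 chromosomes, 4 of them on the X, and exons of 17 overlapped exons of a gene on the other strand.

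Barcodes were kept where 200 to 5000 genes were detected and at most 5% of unique molecular identifiers (UMIs, 1 for each captured molecule) were mitochondrial. This left 1045 of 1415 UT barcodes and 571 of 5047 IMQ barcodes, with 1104798 and 460947 UMIs and medians of 741 and 659 UMIs per barcode. In IMQ, 3621 barcodes had fewer than 200 genes, and the whole IMQ matrix was smaller than the set of IMQ cells described by the study after its own filter. The libraries shared 1 barcode sequence among all deposited barcodes and 0 among those kept. Transcripts of the ribosomal RNA locus differed strongly, since Gm42418 took 1.38% of kept UMIs in UT and 14.6% in IMQ, while the nuclear RNA Malat1 took 1.45% and 0.436%. The fibroblast label was checked on 7 markers, of which Col1a1, Col1a2, Col3a1, Dcn, Lum and Dpt each had a UMI in over 40% of kept barcodes of both libraries, whereas Pdgfra had one in 3.92% and 2.45%. Ptprc, which encodes CD45, had 1 UMI in UT and 0 in IMQ. Summed levels of 7 keratinocyte markers were 1523 in UT and 15.2 in IMQ as UMIs in 1000000 (CPM), and those of 8 myeloid or antigen-presenting markers 1570 and 239 CPM. Cluster 5, described below, held 17825 UMIs of Malat1, where all kept barcodes had 15981 in UT and 2010 in IMQ. It also held 1060, 321 and 235 UMIs of Krt10, Krt1 and Dsp, where all kept UT barcodes had 1108, 321 and 235. Krt1 and Dsp each had a UMI in only 0.191% of UT barcodes. The part of such cells in the results was not tested, but the shares are also given within clusters.

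Ribosomal protein messengers made up a large and similar part of all UMIs in both libraries. In UT they gave 228767 of 1104798 UMIs, or 20.7% (20.6 to 20.8, Clopper-Pearson), and in IMQ 89425 of 460947, or 19.4% (19.3 to 19.5). Between libraries this was a log2 ratio (IMQ over UT) of -0.09 (-0.11 to -0.08), but its sign depended on what the total contained. With mitochondrial genes, Gm42418 and AY036118 left out of the total, the UT share was 21.5% and the IMQ share 23.5%, which gave a log2 ratio of 0.13. Relative to all other UMIs outside these groups the log2 ratio was 0.17, and with TMM or median-of-ratios scaling it was 0.39 or 0.38. The median gene of 8129 with at least 10 UMIs had a log2 ratio of -0.61 in CPM, so the summed ribosomal protein genes stood above the median gene. Scaling to other UMIs moved that median to -0.36 and TMM moved it to -0.12, and as these scalings shift all genes nearly alike they leave the distance between sum and median gene as it is. Among the 377 genes with at least 500 UMIs the median in CPM was -0.34, beside -0.10 for the 80 members of that depth.

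In UMIs per barcode, a kept UT barcode held 219 ribosomal protein UMIs on average with a median of 162, and a kept IMQ barcode 157 with a median of 124. Other UMIs outside the mitochondrial and ribosomal RNA groups averaged 797 and 508 per barcode. Fewer cells of a type and less RNA per cell could not be told apart in these sums, nor could RNA content and capture.

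The share varied widely between barcodes of the same library. In UT the 5th percentile, median and 95th percentile were 9.23%, 20.8% and 42.2%, and in IMQ 6.81%, 18.1% and 36.4%. The lowest and highest barcodes were at 1.23% and 65.3% in UT and at 1.18% and 53.6% in IMQ, so the libraries overlapped over nearly their whole range. The SD over barcodes was 10.3 percentage points in UT and 9.35 in IMQ, while counting alone would give 1.52 and 1.55. The squared deviation of each barcode's count from that of the library's share, divided by its binomial variance, averaged 62.8 and 44.6, a measure in which deeper barcodes weigh more. With each barcode thinned to 400 UMIs, which left out 73 UT and 33 IMQ barcodes, the medians were 20.6% and 18.0%. Without the mitochondrial and ribosomal RNA groups in the total the medians were 21.7% in UT and 22.6% in IMQ, in the opposite order.

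**Figure D1:**
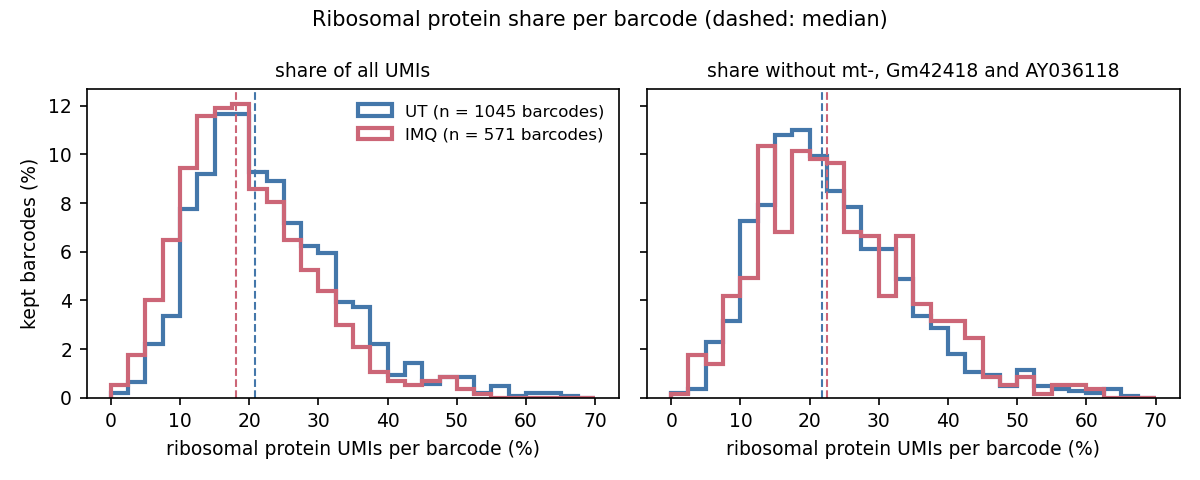
Share of ribosomal protein UMIs per kept barcode on the x axis (percent) against the percent of kept barcodes on the y axis, for UT (blue, 1045 barcodes) and IMQ (red, 571 barcodes), of all UMIs (left) and with mitochondrial genes, Gm42418 and AY036118 left out of the total (right). The medians (dashed lines) are 20.8% in UT and 18.1% in IMQ on the left and 21.7% and 22.6% on the right, so their order turns with the total.

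The share differed between bins of depth in UT. Its median was 21.1% in the 73 UT barcodes with fewer than 400 UMIs, 24.5% in the 413 UT barcodes with 400 to 700 UMIs, 19.4% in the 224 with 700 to 1000, 18.6% in the 248 with 1000 to 2000, and 14.8% in the 87 with at least 2000. In the IMQ barcodes of the same bins it was 19.7%, 17.7%, 20.7%, 17.4% and 14.8%, the last bin holding only 10 barcodes. Neither library had a steady order over all bins, and in both the deepest bin was the lowest. Pearson's r over barcodes was taken with the share whose total leaves out the mitochondrial and ribosomal RNA groups, unlike the bins above. Against log10 UMIs it was -0.25 in UT (n = 1045) and -0.03 in IMQ (n = 571). Against the mitochondrial percentage it was 0.12 and 0.31. These correlations describe barcodes of a single library each. The share and the mitochondrial percentage are divided by part or all of the same UMIs, which log10 UMIs also counts.

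Levels of single members are given as CPM, that is UMIs in 1000000 UMIs of the library. UMIs are tags of the 3′ end, 1 per captured messenger, and were not divided by gene length. Reads of members that share 3′ sequence with copies could be lost to or gained from them, so an order of levels between genes is an order of tags only.

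The most abundant small-subunit messenger was Rps29, with 7344 UMIs or 6647 CPM in UT and 2648 UMIs or 5745 CPM in IMQ. Rps28, whose protein lies near the exit of the messenger channel, had 4921 and 3968 CPM, and Rps24 had 4619 and 3823 CPM. All 3 were lower in IMQ on this scale, with log2 ratios of -0.21, -0.31 and -0.27, but relative to other UMIs these became 0.05, -0.05 and -0.01. Rps27a, which is made as a fusion of ubiquitin with a small-subunit protein, had 3176 CPM in UT and 2957 CPM in IMQ, a log2 ratio of -0.10 (-0.19 to -0.01). Rpsa, also known as the laminin receptor precursor, had 2906 and 2226 CPM, a log2 ratio of -0.38 (-0.49 to -0.28).

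Among large-subunit genes the highest were Rpl41, the smallest ribosomal protein, with 6078 CPM in UT and 5148 CPM in IMQ, and Rpl13 with 5188 and 4276 CPM. Rpl37a had 4501 and 4098 CPM and Rpl38 4274 and 3599 CPM. The log2 ratios of these 4 genes ran from -0.28 for Rpl13 to -0.13 for Rpl37a in CPM, and relative to other UMIs Rpl41, Rpl37a and Rpl38 were at 0.02, 0.12 and 0.01 while Rpl13 was at -0.02. A UMI of Rpl41 was found in 96.3% of UT and 92.6% of IMQ barcodes.

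The stalk genes differed among themselves. Rplp0, the anchor of the stalk, had 3006 CPM in UT and 3191 CPM in IMQ, a log2 ratio of 0.09 (-0.00 to 0.18). Rplp1 had 5758 and 4834 CPM, a log2 ratio of -0.25 (-0.32 to -0.18). Rplp2, the partner of Rplp1 in the stalk dimers, had 2552 and 1631 CPM, a log2 ratio of -0.65 (-0.76 to -0.53), and its interval lay below those of both other stalk genes. A UMI of Rplp2 was found in 81.5% of UT and 59.9% of IMQ barcodes. Of the 3′ sequence of Rplp2, 41.4% was shared with Wdr89, and the part of shared reads in this value was not tested.

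The 77 members that encode subunit or stalk proteins kept nearly the same order in both libraries. Across these genes, which are not independent, Pearson's r of log2 CPM was 0.945 and Spearman's rho 0.930, and 6 of the 8 highest were the same. The highest of them had 8.98 times the CPM of the lowest in UT and 7.31 times in IMQ, with Rps29 at the top of both. Of the 84 members with at least 10 UMIs, 79 lay above the median gene in their ratio.

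**Figure D2:**
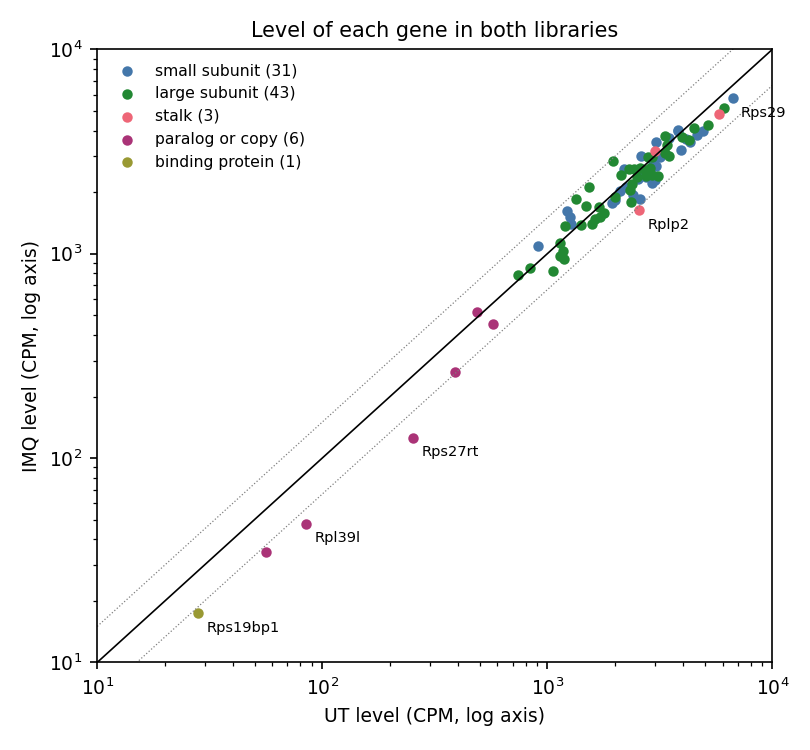
Level of each of the 84 measured members in UT (x axis) and IMQ (y axis) in CPM on log axes, coloured by role. The solid line marks equal CPM and the dotted lines a 1.5-fold difference; of the subunit and stalk genes only Rplp2 lies past the lower dotted line, at 2552 CPM in UT and 1631 CPM in IMQ.

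Differences of single members were counted as called past 1.5-fold in CPM, with 1 CPM added to each library. Of 84 measured members, 5 were called lower in IMQ, where 51.0% of 8129 genes were, and 0 were called higher, where 8.49% of genes were. Among genes with at least 500 UMIs, 1 of 80 members was called lower (background 36.1%) and 0 higher (background 6.1%). Relative to other UMIs, 1 member was called lower (background 39.3%) and 4 higher (background 13.5%). With TMM scaling, 0 were called lower (background 29.1%) and 15 higher (background 19.3%). On each of these scales a smaller share of members than of all genes was called, although with TMM the share called higher was near the background. Called lower were Rplp2 and 4 low members that are not standard subunit proteins, namely Rps27rt, Rpl39l, Rpl7l1 and Rps19bp1, and the intervals of Rpl7l1 and Rps19bp1 covered 0.

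The median log2 ratio of the 77 subunit and stalk genes was -0.10 and their range was -0.65 to 0.53, and relative to other UMIs their median was 0.16. Small-subunit genes had a median of -0.10 (n = 31) and large-subunit genes a median of -0.10 (n = 43), so the subunits were level with each other. Over all 84 measured members, the counting interval of the log2 ratio in CPM lay below 0 for 44, above 0 for 15 and covered 0 for 25, where it lay below 0 for 28.1% and above 0 for 4.11% of the 8129 genes. Taken as a part of the ribosomal protein UMIs, which does not change with the library total, it lay below 0 for 27 and above 0 for 24, where 24% and 4.92% of all genes did on that scale. Intervals narrow with the number of UMIs, and 80 members are among the 377 genes with at least 500, so the counts and these shares differ in precision.

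The members with the highest ratios were Rpl17, Rpl12, Rpl5 and Rps6. Rpl17, at the nascent chain exit tunnel, had 1952 CPM in UT and 2825 CPM in IMQ, a log2 ratio of 0.53 (0.43 to 0.63). Rpl12, at the base of the stalk, had 1523 and 2128 CPM, a log2 ratio of 0.48 (0.37 to 0.60). UMIs of Rpl17 were found in 72.9% of UT and 76.5% of IMQ barcodes, and those of Rpl12 in 65.5% and 71.3%.

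Rpl5, which binds the 5S ribosomal RNA and, outside the ribosome, the p53 regulator MDM2, had 1339 CPM in UT and 1850 CPM in IMQ, a log2 ratio of 0.47 (0.34 to 0.59). Rps6, the substrate of the S6 kinases downstream of mTORC1, had 1217 and 1625 CPM, a log2 ratio of 0.42 (0.29 to 0.55). Relative to other UMIs Rpl17, Rpl12, Rpl5 and Rps6 reached 0.79, 0.74, 0.73 and 0.68, which made them the 4 called higher on that scale. Rps15, Rps18 and Rps23, of which Rps23 lies at the decoding centre, had log2 ratios of 0.26, 0.24 and 0.22 in CPM. Exons of Rpl12 overlap Lrsam1 and those of Rpl5 overlap Fam69a on the other strand in GENCODE M21. Of the 3′ sequence of Rpl17, 22.6% was shared with Gm6133, and of that of Rps18, 68.1% with Gm10260 and Gm11361. Rpl12, Rpl5, Rps6, Rps15 and Rps23 shared 0%. The part of shared reads in these values was not tested.

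At the lower end after Rplp2 came Rps26 and Rpl8. Rps26, at the messenger exit channel, had 2582 CPM in UT and 1846 CPM in IMQ, a log2 ratio of -0.48 (-0.60 to -0.37), and 0% of its 3′ sequence was shared with another gene. Rpl8, close to the peptidyl transferase centre, had 2361 and 1790 CPM, a log2 ratio of -0.40 (-0.51 to -0.29). Relative to other UMIs Rps26, Rpl8 and Rplp2 were at -0.22, -0.14 and -0.39. With TMM scaling Rplp2 was at -0.16 and Rps26 at -0.0011, while the sign of Rpl8 turned, at 0.08.

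**Figure D3:**
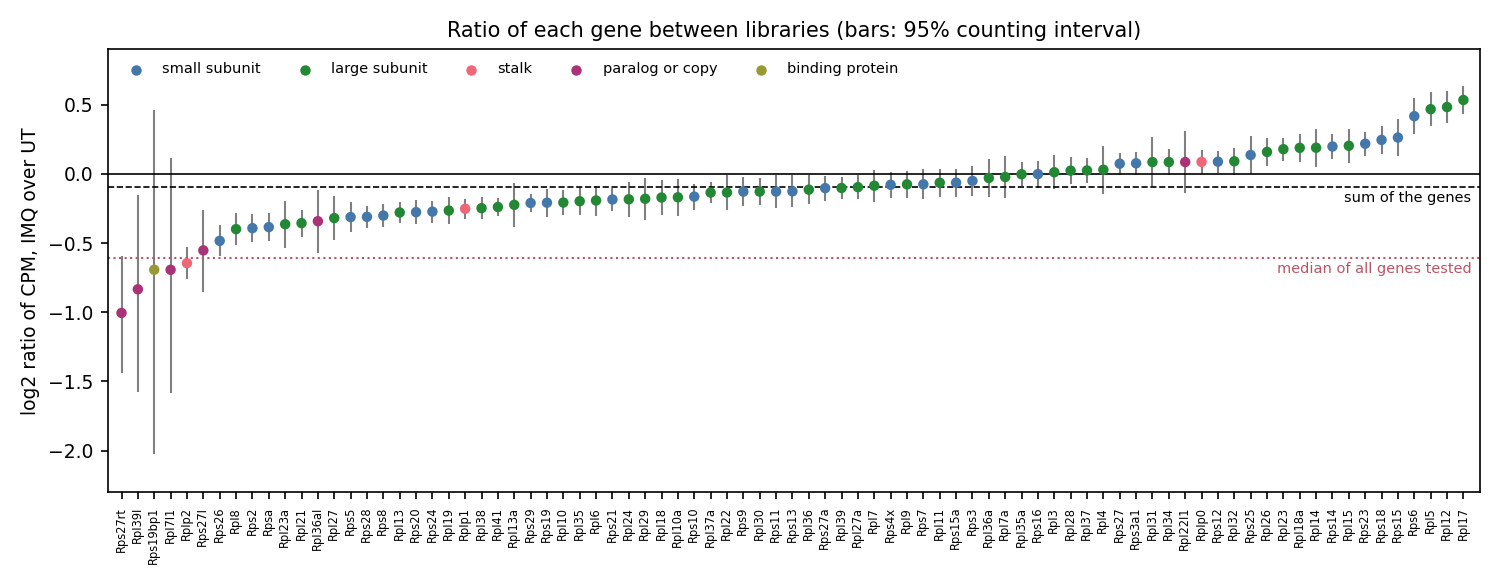
Log2 ratio of CPM, IMQ over UT (y axis), for 83 of the 84 measured members in order of their ratio (x axis), coloured by role, with bars for the 95% counting interval. The dashed line is the summed ratio of -0.09, which is positive on other scales, and the dotted line the median gene at -0.61; most members lie between the dotted line and 0.5.

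All paralogs had fewer UMIs than any subunit or stalk gene in both libraries. The lowest subunit gene, Rpl31, had 740 CPM in UT and 785 CPM in IMQ. Rpl36al, a paralog of Rpl36a, had 572 CPM in UT and 451 CPM in IMQ. Rpl22l1, a paralog of Rpl22, had 489 and 518 CPM. Rps27l, a p53-responsive paralog of Rps27, had 388 and 265 CPM, a log2 ratio of -0.55 (-0.86 to -0.26).

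Rpl39l, a paralog known from testis, had 94 and 22 UMIs, or 85.1 and 47.7 CPM, with a log2 ratio of -0.83 (-1.58 to -0.15). Rpl7l1, a nucleolar relative of Rpl7, had 62 and 16 UMIs, or 56.1 and 34.7 CPM, a log2 ratio of -0.69 (-1.59 to 0.12). Rps19bp1 had 31 and 8 UMIs, or 28.1 and 17.4 CPM, also a log2 ratio of -0.69 (-2.03 to 0.46). For the last of these genes the depth could not show a difference.

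Rpl3l, which replaces Rpl3 in striated muscle, and Rpl10l, which stands in for Rpl10 in the testis, had 0 UMIs in all deposited barcodes of both libraries. At 3 counts, the limit in kept barcodes was 2.72 CPM in UT and 6.51 CPM in IMQ. Neither gene was detectable at this depth.

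Rps27rt is an intronless copy of Rps27 that lies on another chromosome, and its start is shown beside that of Rps27 because the letters around both starts are shared. The 25 bases are from GRCm38.p6 and the 19 shared bases are in capitals.
Rps27, chr3:90213629-90213653, minus strand: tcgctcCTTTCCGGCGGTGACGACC
Rps27rt, chr9:114982720-114982744, minus strand: ccttgCTTTCCGGCGGTGACGACCt

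Rps27 itself had 3790 CPM in UT and 3987 CPM in IMQ, a log2 ratio of 0.07 (-0.01 to 0.15), while Rps27rt had 279 and 58 UMIs, or 253 and 126 CPM, with a log2 ratio of -1.005 (-1.44 to -0.59). Per 100 UMIs of Rps27 there were 6.66 UMIs of Rps27rt in UT and 3.16 in IMQ. Of the 3′ end of Rps27rt, 88.4% of the 50-base words also occur in Rps27.

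Most other copies were also lower per UMI of their member in IMQ. Of all members, 21 shared at least 20% of the 50-base words of their 3′ ends with another gene, and 14 pairs of a member and a copy had at least 10 UMIs of the copy. The copy was lower per UMI of its member in IMQ, with an interval below 0, in 8 of the 14 pairs, and higher in 1. Per ribosomal protein UMI, the interval lay below 0 for 24% and above 0 for 4.92% of all 8129 genes. The median gene was also lower, at -0.61 in CPM, so a fall relative to the members was not particular to copies. Rpl10-ps3 fell from 8.83 to 2.52 UMIs per 100 UMIs of Rpl10, Rps12-ps3 from 3.67 to 0.913 per 100 of Rps12, and Wdr89 from 6.74 to 2.79 per 100 of Rplp2. Gm11361 had 54 and 1 UMIs beside 2429 and 1201 UMIs of Rps18, a log2 ratio per Rps18 UMI of -4.74 (-10.1 to -2.20). Gm10076 went the other way, from 1.46 to 5.18 per 100 of Rpl41.

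The matrix headers named Cell Ranger 3.0.0 for UT and 3.1.0 for IMQ, and this cannot be told apart from the treatment. Subunit and stalk genes with at least 20% of shared 3′ words had a median log2 ratio of -0.18 in CPM (n = 19), against -0.10 for those with less (n = 58).

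**Figure D4:**
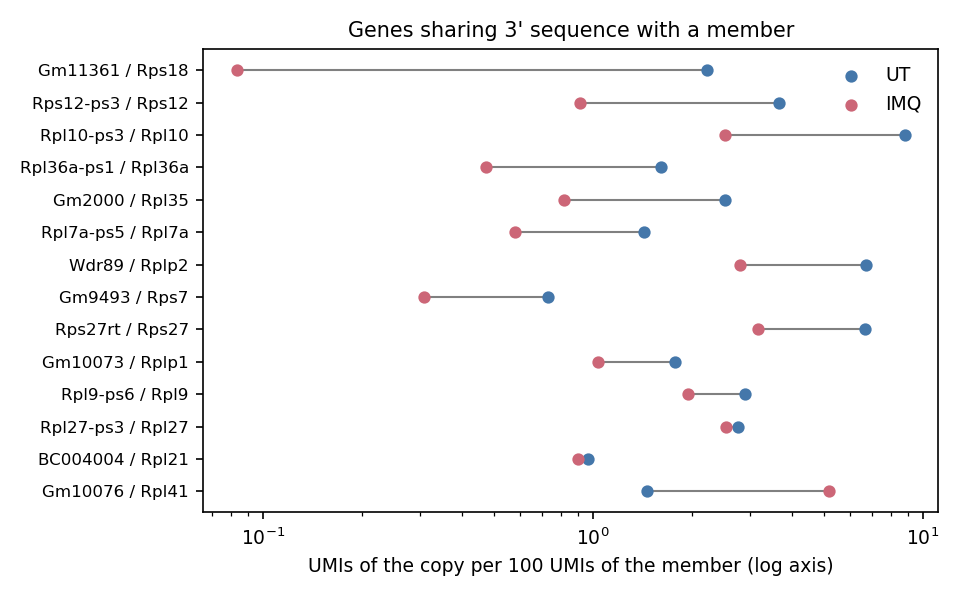
UMIs of each copy per 100 UMIs of the member whose 3′ sequence it shares (x axis, log scale) for 14 pairs (y axis), in UT (blue) and IMQ (red). Gm10076 rises from 1.46 to 5.18 per 100 of Rpl41, and the other 13 copies are lower in IMQ, with intervals below 0 for 8 of them. Of all 8129 genes, 24% had an interval below 0 per ribosomal protein UMI.

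Clusters were then used to ask whether the share differed within like cells. The 6 clusters were made from both libraries together with ribosomal protein, mitochondrial and ribosomal RNA locus genes kept out of the variable genes, and they are called by number. In each of clusters 1 to 4, at least 20% of barcodes had a UMI of 6 of the 7 fibroblast markers. No type's markers, those of fibroblasts included, were enriched in these clusters. Cluster 6, led by Cd74, H2-Ab1 and H2-Eb1, was antigen-presenting-like with 7 of 8 such markers enriched. Cluster 5, led by Malat1 and keratin genes, stayed unnamed. Malat1 had a UMI in 97.4% of its barcodes, Krt10 in 23.1%, and Krt77 and Krt1 in only 5.13%. All 7 fibroblast markers had a UMI in at least 20% of the barcodes of cluster 5. Cluster 3 was led by Coch, Fmod and Kif26b, with a UMI in only 5.97%, 2.20% and 3.14% of its barcodes. These genes therefore do not describe most of its barcodes. Cluster 4 was led by Pi16, Lbp and Mfap5, with a UMI in 45.3%, 29.3% and 21.3%.

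Ribosomal protein UMIs took 34.6% of UMIs in cluster 3 in UT (n = 273 barcodes) and 35.1% in IMQ (n = 45). In cluster 4 they took 15.9% (n = 194) and 15.0% (n = 106). Cluster 1 was at 18.7% and 17.5% and cluster 2 at 22.7% and 23.4%. On this total the distance between clusters 3 and 4 within a library was larger than that between the libraries within either cluster. As these are the clusters with the highest and the lowest share in both libraries, a large distance follows from taking this pair.

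Without mitochondrial and ribosomal RNA UMIs in the total, the IMQ share was the higher one in clusters 1 to 5, at 21.5% against 19.5% in cluster 1, 29.5% against 23.7% in cluster 2, 42.2% against 36.0% in cluster 3, 18.0% against 16.5% in cluster 4 and 18.8% against 17.4% in cluster 5. Cluster 5 held only 32 UT and 7 IMQ barcodes, and its median share per barcode on this total was 12.2% in UT and 19.4% in IMQ. Its summed share rests largely on deep barcodes, such as those of 24879 and 23202 UMIs in UT, at 24.6% and 24.9%. In cluster 6 the order was the opposite, 21.3% in IMQ (n = 10) and 28.7% in UT (n = 25). The cells under this number were unlike in the libraries, since the 4 matrix genes Col1a1, Col1a2, Col3a1 and Sparc took 0.0481% of these UMIs in UT and 5.04% in IMQ.

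Cluster 3 held 26.1% of kept UT barcodes and 7.88% of kept IMQ barcodes, and 273 of its 318 barcodes came from UT, so it may in part reflect that library. When the IMQ clusters were given the UT proportions of barcodes, with the UMIs per barcode of IMQ, the IMQ share was 21.4% instead of 19.4%, above the 20.7% of UT. When they were given the UT proportions of UMIs it was 20.2%, below that of UT. Both weightings were chosen after the data were seen. Without clusters 3 and 6, a choice made after the data were seen, the shares were 18.0% in UT and 18.3% in IMQ and the log2 ratio in CPM was 0.02 instead of -0.09.

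Per barcode, clusters 3 and 4 of UT differed less in ribosomal protein UMIs than in the rest. A UT barcode of cluster 3 held 213 ribosomal protein UMIs on average and 378 others, and one of cluster 4 held 236 and 1193. In IMQ these were 234 and 319 in cluster 3 and 133 and 607 in cluster 4. There both parts differed, with more ribosomal protein UMIs and fewer others in cluster 3. The 4 matrix genes Col1a1, Col1a2, Col3a1 and Sparc took 3.41% of UMIs without the mitochondrial and ribosomal RNA groups in cluster 3 of UT and 9.43% in cluster 4. In IMQ they took 7.42% and 19.8%. With these 4 genes also left out of the total, the ribosomal protein share in UT was 37.3% in cluster 3 and 18.2% in cluster 4, and in IMQ 45.6% and 22.5%, so the distance between the clusters remained.

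**Figure D5:**
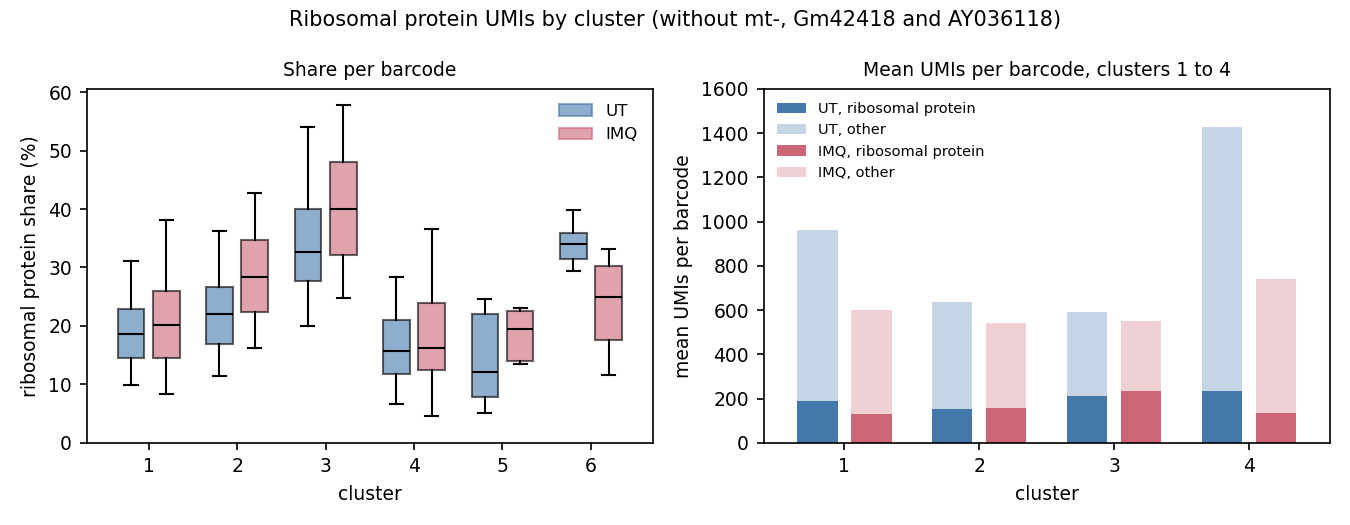
Left, share of ribosomal protein UMIs per barcode (percent, y axis) by cluster (x axis) in UT (blue) and IMQ (red), with boxes from the 25th to the 75th percentile, the median as a line and whiskers at the 5th and 95th percentiles. Right, mean UMIs per barcode in clusters 1 to 4, split into ribosomal protein UMIs (dark) and others (light), where UT clusters 3 and 4 hold 213 and 236 ribosomal protein UMIs beside 378 and 1193 others; mitochondrial genes, Gm42418 and AY036118 are left out of both panels.

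The distance between clusters 3 and 4 was spread over the whole family. In UT, 79 of 83 members with at least 10 UMIs in these clusters were at least 1.5-fold higher in cluster 3 in CPM computed without the mitochondrial and ribosomal RNA groups, where 13.7% of 4163 genes were, and 0 were lower, where 46.6% were. In IMQ, 81 of 81 members were higher (background 26.6% of 1167 genes) and 0 lower (background 44.1%). The median log2 ratio of the members was 1.12 in UT and 1.20 in IMQ, against -0.49 and -0.34 for all genes. Clusters 3 and 4 had the highest and the lowest ribosomal protein share in both libraries. The excess of the members over the background follows from taking this pair, and the counts show only how evenly it was spread. As the clusters were also drawn from other genes of the same barcodes, these are descriptions.

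The members with the smallest distances in UT were the paralogs Rpl7l1, Rpl36al, Rpl39l and Rps27l, at 0.26, 0.39, 0.47 and 0.53, which were the 4 not past 1.5-fold. Rpl7l1 (14 and 20 UMIs, -0.83 to 1.33) and Rpl39l (17 and 21 UMIs, -0.54 to 1.47) had intervals that cover the members' median of 1.12. The paralogs Rps27rt and Rpl22l1 were at 1.20 and 0.93. The largest distances were those of Rpl22 at 1.36 and Rpl37 at 1.36. In IMQ, Rpl7l1, Rpl39l and Rps19bp1 had fewer than 10 UMIs in these clusters and were not counted. In IMQ the range was 0.65 for Rpl36al to 1.68 for Rpl3. The distance was present within bins of depth, since in UT barcodes with 1000 to 2000 UMIs the median share without the left-out groups was 40.4% in cluster 3 (n = 19) and 16.7% in cluster 4 (n = 83), and in those with 400 to 700 UMIs 32.5% (n = 186) and 15.2% (n = 29).

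Other genes of the translation machinery were compared through lists, given as medians of the log2 ratio in CPM beside the median gene at -0.61 and the background of 51.0% lower and 8.49% higher. The 20 other TOP messengers had a median of 0.06, with 1 lower and 2 higher. Tpt1, which encodes the translationally controlled tumour protein, had 6615 CPM in UT and 9248 CPM in IMQ. The elongation factor gene Eef1a1 had 4395 and 5001 CPM, the filament gene Vim 2780 and 3838 CPM, and Fau, whose product is processed to the small-subunit protein RPS30, 3021 and 2449 CPM.

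The 29 translation initiation factors, 4 of which are also TOP messengers on the first list, had a median of -0.43, with 8 lower and 4 higher. The factor gene Eif1 had 2036 and 1757 CPM, Eif5a 528 and 197 CPM, Eif2s2 386 and 258 CPM, and Eif3f 348 and 330 CPM. The 32 measured genes of ribosome biogenesis had a median of -0.92, with 23 lower and 1 higher. Among these, the nucleolar chaperone gene Npm1 had 453 and 432 CPM, Ncl 289 and 223 CPM, Nop10 133 and 80.3 CPM, and Ebna1bp2 79.7 and 19.5 CPM. In CPM the ribosomal protein and TOP messengers thus stood above, and the biogenesis list below, the median gene, and the biogenesis genes were counted at far lower levels.

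The list of RNA polymerase I genes also holds genes with Polr2 symbols, so it does not stand for polymerase I alone. Its median was -0.10, with 3 lower and 1 higher of 13. The most abundant were Polr1d at 196 and 217 CPM, Polr2f at 141 and 111 CPM, Polr2l at 89.6 and 71.6 CPM and Polr2k at 83.3 and 80.3 CPM. The 12 measured genes of mTORC1 and TOP regulation had a median of -0.80, with 7 lower and 1 higher. Larp1, the binder of TOP tracts, had 46 and 4 UMIs, a log2 ratio of -2.26 (-4.20 to -0.81). Also lower were Cnbp at 236 and 150 CPM, Ssb, which encodes La, at 174 and 86.8 CPM, and Akt1s1, Larp4b, Eif4ebp2 and Tsc2 at 22.6 to 43.4 CPM in UT and 8.68 to 21.7 CPM in IMQ. Eif4ebp1, an inhibitor of cap-dependent initiation, was higher at 79.7 and 121 CPM, and Rheb had 149 and 154 CPM.

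The 9 measured genes of the integrated stress response had a median of -1.36, with 5 lower and 1 higher. Atf4 had 142 CPM in UT and 193 CPM in IMQ, Ddit3 51.6 and 41.2 CPM, and Ppp1r15a 46.2 and 41.2 CPM, none past 1.5-fold, while Atf3, an immediate early gene, had 148 and 23.9 CPM. The others past it rested on at most 17 UMIs in a library, with Ddit4 at 17 and 2 UMIs, Eif2ak2 at 14 and 2, Eif2ak1 at 13 and 1, Eif2ak3 at 11 and 1 and Asns at 7 and 6.

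The 74 measured mitochondrial ribosomal protein genes, which serve the organelle's own ribosome, had a median of -0.56, close to the median gene, with 35 lower and 3 higher. Mrpl52 had 353 and 265 CPM, Mrpl33 293 and 126 CPM, Mrps21 224 and 135 CPM, and Mrpl23 170 and 99.8 CPM. The 13 messengers encoded by mitochondrial DNA had a median of -0.13, with 3 lower and 1 higher, and mt-Atp6 had 4198 and 4834 CPM, mt-Co1 4388 and 3530 CPM, mt-Co3 3433 and 4569 CPM and mt-Co2 3306 and 3315 CPM. The limit on mitochondrial UMIs acts on these genes directly.

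The 4 measured nuclear RNAs had a median of -1.91, with Malat1 at 14465 and 4361 CPM, Meg3 at 146 and 8.68 CPM and Kcnq1ot1 at 30.8 and 6.51 CPM lower, and Neat1 at 66.1 and 158 CPM higher. The 3 transcripts read at the ribosomal RNA locus or carrying such sequence, Gm42418, Lars2 and AY036118, were all higher, with a median of 3.40. The part of either group in the ratios of the ribosomal protein genes was not tested beyond leaving Gm42418 and AY036118 out of the total.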

How the data were processed

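Droplet libraries (10x Genomics 3′ kit, version 3) of sorted dermal cells were processed by the authors with Cell Ranger (3.0.0 for UT and 3.1.0 for IMQ per the file headers) against mm10, and the annotation release was not given in the sources used here. The deposited values are raw counts of UMIs per gene and barcode, not normalized. Barcodes with 200 to 5000 genes and at most 5% mitochondrial UMIs were kept, as in the study's methods. No doublet caller entered the main values; the sort excluded cell doublets but not droplets that took several cells. Counts were summed per library, CPM was computed on all kept UMIs, and ratios were called past 1.5-fold with 1 CPM added and at least 10 UMIs. Intervals are exact binomial (scipy 1.17.1) and cover counting error only.

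Clusters were made with Seurat 5.3.0 in R 4.3.3 (2000 variable genes, 30 anchor dimensions, 20 components, resolution 0.5). TMM factors came from edgeR 4.0.16 and doublet scores from scanpy 1.11.5. Shared 3′ sequence was counted as 50-base words in the last 300 bases of GENCODE M21 transcripts, where all 86 members were found. The ratio and its calls were tested on simulated data.

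The members and lists were chosen with earlier results of these data known. Named were the 8 highest and 5 lowest members by summed CPM, the 8 highest and 8 lowest ratios, Rpsa, the stalk genes, Rps27a, all paralogs, Rps19bp1, and for the lists the 4 members with most UMIs and those past the fold in lists of up to 12. The values of 1 member that this rule names are not reported here. Copies, Rps12, Rps27, Rpl22, Rpl37 and Rpl3 were named after their values were seen.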

Additional observations from a re-analysis of the deposited data

Results flagged for a closer look

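In cluster 6, which was antigen-presenting-like, the log2 ratio of the ribosomal protein share in IMQ over UT was -0.56 (-0.64 to -0.47), from 27.5% in 25 UT barcodes and 18.7% in 10 IMQ barcodes. It was marked because clusters 2, 3 and 5 had ratios of the other sign, at 0.04, 0.02 and 0.05, of which that of cluster 3 had an interval covering 0 (-0.01 to 0.05). Cluster 5 held only 32 UT and 7 IMQ barcodes. Clusters 1 and 4 had the same sign as cluster 6, at -0.10 and -0.09. The cells compared were unlike, since the matrix genes Col1a1, Col1a2, Col3a1 and Sparc took 0.0481% of cluster 6 in UT and 5.04% in IMQ. That total left out mitochondrial genes, Gm42418 and AY036118. The marker counts given here are over all kept barcodes and not cluster 6 alone. Cd74, H2-Ab1 and H2-Eb1 had 798, 282 and 283 UMIs in UT and 29, 6 and 5 in IMQ. In CPM, H2-Aa (223 and 30.4) and Lyz2 (92.3 and 67.3) were also lower in IMQ. C1qa (8.15 and 36.9), C1qb (10.9 and 15.2) and Cd68 (1.81 and 2.17) were higher in IMQ, on few UMIs. The difference between clusters was not tested.

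Barcodes that the filters left out also carried these messengers. In the 4476 IMQ barcodes that were not kept the ribosomal protein share was 15.6% (15.5 to 15.6), and in the 370 such UT barcodes it was 23.7%. It was marked as a signal in data outside the comparison. Without mitochondrial genes, Gm42418 and AY036118 in the total it was 24.6% in IMQ and 25.5% in UT, and Gm42418 took 24.1% of the UMIs of the IMQ barcodes left out.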

How the results depend on the processing

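The summed log2 ratio of -0.09 turned to 0.17 scaled to other UMIs, 0.39 with TMM, 0.38 with median-of-ratios scaling and 0.021 without clusters 3 and 6 (this last chosen after seeing the data). It was -0.081 with a 10% mitochondrial limit, -0.40 over all deposited barcodes, -0.16 with at least 500 genes and -0.12 in clusters 1 to 4. The UT and IMQ shares were 20.9% and 19.7% with the 10% limit, 21.5% and 16.3% over all barcodes, 17.6% and 15.7% with 500 genes (303 and 37 barcodes), 21.4% and 19.6% in clusters 1 to 4, 21.5% and 23.5% without mitochondrial genes, Gm42418 and AY036118, 22.2% and 24.1% with both of these choices (chosen after seeing the data), 18.0% and 18.3% without clusters 3 and 6, and 22.6% and 19.7% as means over barcodes. The IMQ share was 21.4% with clusters weighted by UT barcodes and 20.2% by UT UMIs (both chosen after seeing the data). Members called lower were 5, against 14 over all barcodes, 10 with -ps symbols added, 1 scaled to other UMIs, 0 with TMM or median-of-ratios scaling and 3 without clusters 3 and 6, and members called higher were 0, against 4, 15, 15 and 3 under the last 4 of these scalings and sets. Of all genes, 51.0% were called lower and 8.49% higher in CPM, 39.3% and 13.5% relative to other UMIs, and 29.1% and 19.3% with TMM. The counts under the other settings have no share of all genes beside them, so they are not results about the members. Leaving out 12 UT and 23 IMQ barcodes with the highest doublet scores, dropping the UMI minimum or the added CPM, and thinning kept shares, medians and counts close. Depth limits the low members, since Rps19bp1 had 8 UMIs in IMQ. No paired analysis was possible because each treatment had 1 library.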

Other observations

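The 3621 IMQ barcodes with fewer than 200 genes had a median of 287 UMIs and a ribosomal protein share of 13.7%, which became 24.8% without mitochondrial genes, Gm42418 and AY036118 in the total, since Gm42418 alone took 30.7% of their UMIs. The 64 UT barcodes with fewer than 200 genes had a median of 396 UMIs, a share of 39.4% and a Gm42418 share of 4.68%. In UT the members thus took a larger share below the gene limit than above it.

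For every 100 ribosomal protein UMIs, the 20 other TOP messengers gave between 11.4 and 13.9 UMIs in the 6 UT clusters and between 14.0 and 19.4 in the 6 IMQ clusters. The cluster with the highest ribosomal protein share, number 3, had 11.4 in UT and 14.9 in IMQ. The ranges of the libraries did not overlap, which is a description of 2 libraries.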
